A study of Rattus norvegicus with 6 samples.

Results

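The nuclear-encoded genes of oxidative phosphorylation were examined in lung mRNA of crTMPRSS2 knockout (KO) and wild-type (WT) rats. They were taken as the protein-coding rows of the count table whose symbol begins with Ndufa, Ndufb, Ndufc, Ndufs, Ndufv, Uqcr, Cox4 to Cox8 or Atp5, or is Sdha, Sdhb, Sdhc, Sdhd or Cyc1, which gave 98 of 40995 rows. Of these, 36 encode subunits of complex I, 8 are complex I assembly factors (Ndufaf genes), 4 belong to complex II, 9 to complex III, 19 to complex IV and 17 to complex V. The other 5 are annotated copies of a subunit gene (Ndufa10l1, Cox7a2l2, Ndufa13-ps1, Ndufb4l1-ps1 and Atp5hl1). Ndufa4 and Ndufa4l2 were counted with complex IV, where NDUFA4 is now placed as a subunit.

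The KO group held 3 rats of the crTMPRSS2 line, in which CRISPR/Cas9 was aimed at Tmprss2, the gene of a serine protease found in airway and alveolar epithelium. The WT group held 3 rats, both groups were on a Sprague-Dawley background, and no animal was treated. The sources used here do not give the sequence of the edit, the number of founders, or the sex, age and litter of the animals. Poly-A RNA of whole lung was sequenced as paired reads, labelled as 1 batch of biological replicates, so each library holds RNA of all lung cell types together.

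Oxidative phosphorylation moves electrons from NADH (complex I) and succinate (complex II) through complex III and cytochrome c to oxygen at complex IV, and complex V uses the proton gradient so formed to make ATP. Most subunits are encoded in the nucleus and imported, while a small set is encoded by mitochondrial DNA. Several complex IV subunits exist as tissue isoforms: Cox6a2, Cox7a1 and Cox8b are the striated muscle forms of Cox6a1, Cox7a2 and Cox8a, and Cox4i2 is a form of Cox4i1 known from lung.

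Total counts were 29933359 to 30514778 in KO libraries and 33033732 to 36895162 in WT libraries. One library differed widely from the rest. On the first principal component, with 59.8% of the variance, WT replicate 1 lay at −108.6 and the others between 9.1 and 30.6. Skeletal muscle markers summed to 39.8, 46.0 and 71.4 CPM (counts scaled to library size with TMM factors) in KO libraries, against 10440 CPM in WT replicate 1 and 40.1 and 42.4 CPM in WT replicates 2 and 3. The sum of squamous epithelium markers was 2.33 to 6.92 CPM in KO libraries, and 3764 CPM in WT replicate 1, 8.14 in replicate 2 and 6.35 in replicate 3. Alveolar type 2 markers such as Sftpc were high in every library, with sums of 27690 to 30140 CPM in KO libraries and 30300 to 48480 CPM in WT libraries. Tmprss2 mRNA was present in both groups, at 46.1, 56.4 and 47.0 CPM in KO libraries and 50.5, 62.0 and 65.7 CPM in WT libraries. Its log2 fold change was −0.25 (edgeR adjusted p = 0.508), and −0.36 (edgeR adjusted p = 0.0589) without WT replicate 1. All KO libraries lay below WT replicates 2 and 3. With the mRNA present in both groups, its level does not check the genotype labels. Fold changes are therefore given with all 6 libraries and, for most genes, again without WT replicate 1, which leaves 3 KO and 2 WT libraries.

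A single gene of the 98 passed the test: Ndufa10l1, annotated as a copy of a complex I subunit gene, was lower in KO lungs. No gene of complexes I to V outside the copies passed, in either direction. Counts allowed a test of 93 genes, since Cox7b2, Cox8c, Atp5hl1 and Ndufb4l1-ps1 had no count in any library and Ndufa13-ps1 had 1 to 10. With edgeR's quasi-likelihood test and Benjamini-Hochberg adjustment over all 18464 genes tested, 1 of the 93 was lower in KO and 0 were higher at an adjusted p under 0.05, against 0.0379% of all tested genes lower and 0.0162% higher (0.0542% in either direction). Leaving out WT replicate 1, again 1 of 93 was lower, Ndufa10l1, and 0 were higher, although 2.34% of all tested genes were then lower and 1.65% higher (3.99% together). DESeq2 with all 6 libraries also called 1 of 94 members, against 1.46% of all 27432 genes it gave a p-value. That set was not filtered for low counts beforehand, so its share is not like that of edgeR. At an unadjusted p under 0.05, 5 of 93 members stood out in either fit, against 11.3% of all tested genes with 6 libraries and 17.8% without WT replicate 1.

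**Figure D1:**
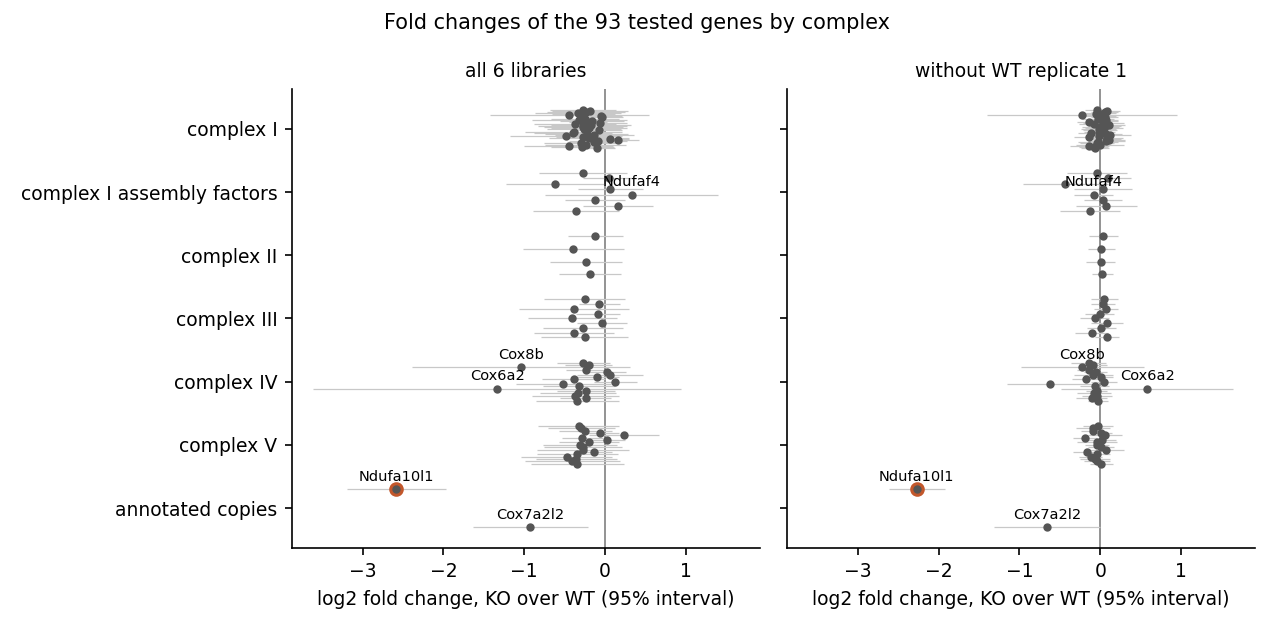
Log2 fold change, KO over WT, of the 93 tested nuclear-encoded oxidative phosphorylation genes with 95% intervals, by complex, with all 6 libraries (left) and without WT replicate 1 (right). Orange points mark an adjusted p under 0.05. Ndufa10l1 lies at −2.58 and −2.27, and 82 of the 93 points lie to the left of 0 on the left panel and 53 on the right one.

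The shift below 0 in the fit with all 6 libraries followed 1 WT library. There, 82 of 93 members lay below a log2 fold change of 0 and 11 above, against 50.3% and 49.7% of all tested genes. Their median was −0.25, beside −0.0029 over all tested genes. When that library was left out, 53 lay below 0 and 40 above, against 49.3% and 50.7% of all tested genes, and the medians were −0.03 and 0.00355. WT replicate 1 was the highest of the 6 libraries for 80 of 93 members (36.4% of all tested genes) and the lowest for 7 (37.3% of all tested genes). Its level lay a median of 0.63 on the log2 scale above the mean of the other 5 libraries over the members, and −0.0149 over all tested genes. Cox6a2 (3.03), Ndufa10l1 (2.12), Cox8b (1.91), Ndufa9 (1.103) and Cox7a2l2 (1.05) had the highest such differences. The other 5 libraries include the KO group, so for genes lower in KO this measure also holds the difference between the groups. Against the mean of WT replicates 2 and 3 alone, the differences were 3.202 (Cox6a2), 0.781 (Ndufa10l1), 1.705 (Cox8b), 1.091 (Ndufa9) and 0.673 (Cox7a2l2). The 7 members at their lowest in WT replicate 1 were Ndufaf4, Atp5mk, Cox7b, Ndufaf2, Cox6c, Ndufa5 and Cox7c. Muscle and squamous markers were high in the same library, and their part in these levels was not tested.

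**Figure D2:**
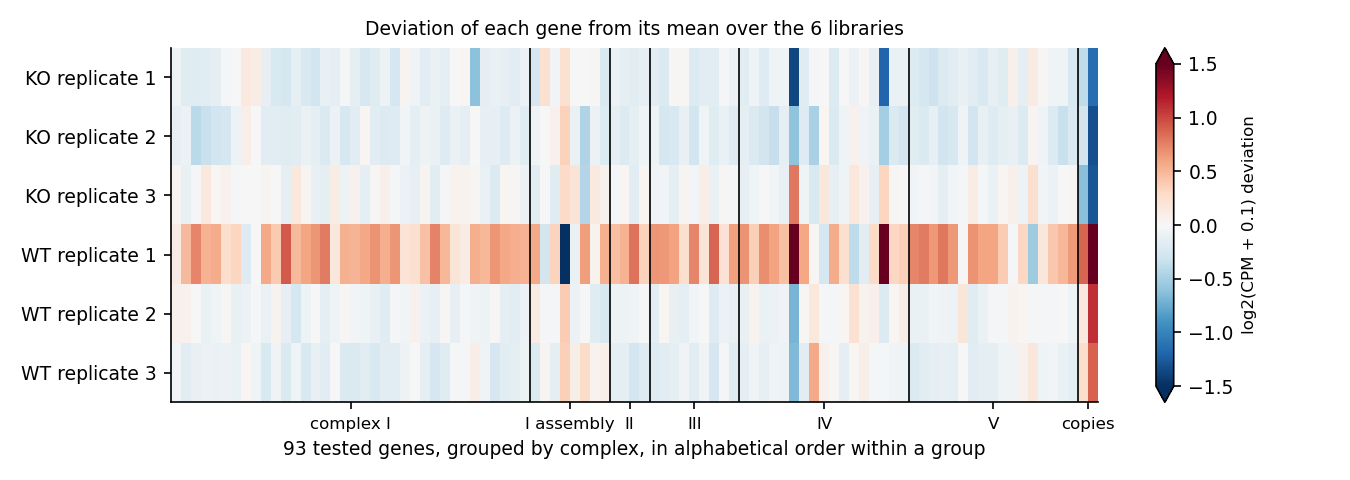
Deviation of log2(CPM + 0.1) from the gene's mean over the 6 libraries, for the 93 tested genes in columns and the libraries in rows. WT replicate 1 is the highest library for 80 of the 93 genes, and the last column, Ndufa10l1, separates the 3 KO from the 3 WT libraries.

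Summed over the 98 genes, the deposited counts made up 0.544%, 0.539% and 0.592% of the library in KO and 0.744%, 0.562% and 0.541% in WT. The groups overlapped, with means of 0.558% ± 0.0292 in KO and 0.616% ± 0.112 in WT (SD, n = 3 each; exact permutation test, two-sided, p = 0.6). Outside Ndufa10l1, the 95% intervals of the fold changes without WT replicate 1 lay within ±0.5 on the log2 scale for 86 of the 92 other tested members and within ±1 for 88. Cox6a2 (−0.49 to 1.65), Cox6b2 (−1.15 to −0.10), Cox7a2l2 (−1.32 to 0.00) and Ndufs6 (−1.40 to 0.95) reached beyond ±1. With all 6 libraries the intervals were wider, and 26 of 92 lay within ±0.5 and 80 within ±1. In whole-lung RNA, fewer cells of a type and less RNA per cell cannot be told apart.

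Ndufa10l1 is annotated as protein-coding on chromosome 6, 59879819 to 59881252 of mRatBN7.2, minus strand. That span of 1434 bases equals its gene length, so the table's annotation holds no intron there, which is also true of the other 4 copies and of no other member. Its name marks it as like Ndufa10, an accessory subunit of complex I on chromosome 9 (93007034 to 93041825, minus strand). Ndufa10l1 had 3.37, 2.96 and 3.03 CPM in KO libraries and 25.9, 16.2 and 14.0 CPM in WT libraries, from 94 to 104 and 523 to 766 counts. Every KO library lay below every WT library, with means of 3.12 ± 0.217 CPM in KO and 18.7 ± 6.35 CPM in WT (SD, n = 3 each). The log2 fold change was −2.58 (SE 0.26, 95% interval −3.20 to −1.96, edgeR adjusted p = 0.0349), and without WT replicate 1 it was −2.27 (SE 0.16, edgeR adjusted p = 7.55e-05). The sign held under each alternative run, while the adjusted p was above 0.05 in several of them, among others in limma-voom (0.0939), in limma on log2(FPKM + 1) (0.0607) and when WT replicate 2 (0.194) or KO replicate 1, 2 or 3 (0.303, 0.326 and 0.280) was left out.

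Ndufa10 itself did not pass the test. It had 54.8, 58.5 and 57.6 CPM in KO libraries and 87.2, 64.9 and 55.6 CPM in WT libraries, so the groups overlapped (log2 fold change −0.28, SE 0.17, edgeR adjusted p = 0.534). Its log2 fold change without WT replicate 1 was −0.08 (SE 0.08, 95% interval −0.26 to 0.10). Of the counts assigned to either gene, Ndufa10l1 held 5.79%, 4.82% and 4.995% in KO libraries and 22.9%, 19.9% and 20.1% in WT libraries. The means were 5.20% ± 0.515 in KO and 21.0% ± 1.67 in WT (SD, n = 3 each), and the groups did not overlap (exact permutation test, two-sided, p = 0.1, the smallest that 3 against 3 libraries can give). WT replicate 1 had the highest level of both genes and also the highest share. Wilson 95% intervals for single libraries, which cover counting error alone, ran from 3.96% to 6.96% over the KO libraries and from 18.5% to 24.4% over the WT libraries.

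The 2 genes together summed to 58.2, 61.5 and 60.7 CPM in KO libraries and 113, 81.1 and 69.7 CPM in WT libraries. All KO sums were below all WT sums (exact permutation test, two-sided, p = 0.1). On the scale of deposited FPKM, which is per gene length, Ndufa10l1 stood at 23.7%, 19.5% and 20.3% of Ndufa10 in KO libraries and at 115%, 96.0% and 97.2% in WT libraries. The sources used here do not say how reads that match both genes were assigned, so the split between such a pair is uncertain. Among the 5 tested genes on each side of Ndufa10l1, none passed the test with all 6 libraries. The nearest of these were Immp2l, which ends at base 58970165, and Dnajb9, which starts at base 61270385, with Ndufa10l1 at 59879819 to 59881252. Without WT replicate 1, the long non-coding RNA LOC120093201 was higher in KO: it had 2.59, 2.40 and 5.29 CPM in KO libraries and 0.813, 0.784 and 0.992 CPM in WT libraries (log2 fold change 1.94, edgeR adjusted p = 0.0293). Immp2l, Lrrn3 and Dnajb9 did not pass in either fit. Immp2l had a log2 fold change of 0.09 with all 6 libraries and 0.18 without WT replicate 1. Lrrn3, which ends at base 58520322, had 0.38 and 0.27. Dnajb9 had 0.09 and −0.21, so its sign turned with that library.

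No cell type marker examined passed the test with all 6 libraries, and some did without WT replicate 1. In that fit 2.34% of all tested genes were lower in KO and 1.65% higher. Natural killer cell markers summed to 245, 249 and 244 CPM in KO libraries and 26.8, 134 and 133 CPM in WT libraries, and 0 of 10 passed with all 6 libraries and 7 of 10 were higher in KO without WT replicate 1. Erythroid markers summed to 1295, 888 and 483 CPM in KO libraries and 676, 2053 and 2352 CPM in WT libraries, with 0 of 8 passing and 4 of 8 lower without WT replicate 1. Alveolar type 2 markers, 10 tested, had 2 lower in KO in that fit, Sftpc and Lamp3, and 0 with all 6 libraries. Without WT replicate 1, endothelial markers had 2 of 10 lower in KO, and alveolar macrophage markers had 1 of 7 lower and 1 higher. The part of these cell types in the level of Ndufa10l1 was not tested.

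**Figure D3:**
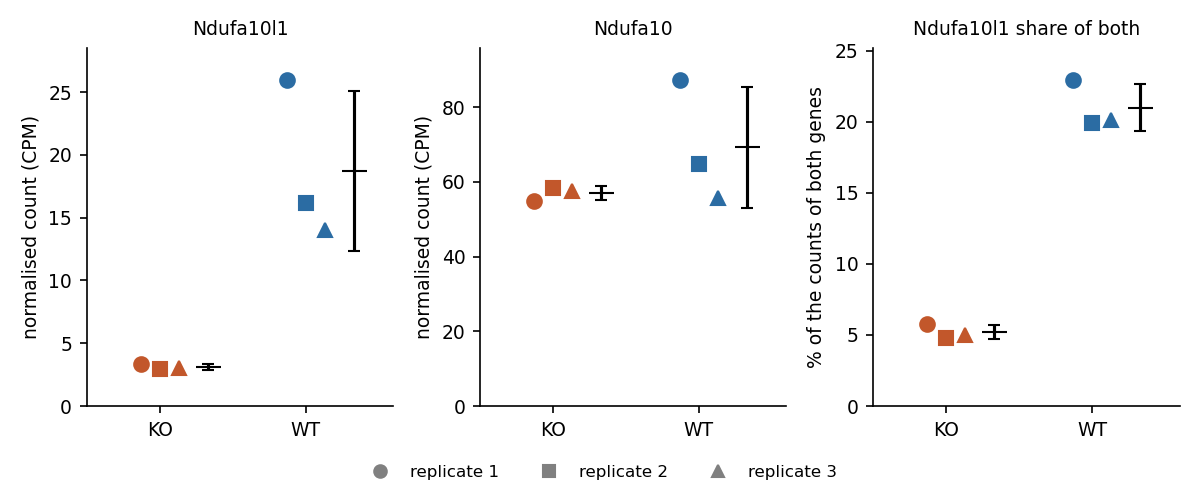
Normalised counts (CPM) of Ndufa10l1 (left) and Ndufa10 (middle), and the share of Ndufa10l1 in the counts of both genes (right), per library, with the mean and SD of each group in black. The KO libraries lie at 4.82% to 5.79% in the right panel and the WT libraries at 19.9% to 22.9%, while Ndufa10 alone overlaps between the groups.

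The other 35 complex I subunit genes also did not pass the test. The complex comprises 7 nuclear-encoded core subunits, which carry the flavin and iron-sulfur clusters, and accessory subunits around them. Median log2 fold changes were −0.25 for the 7 core genes and −0.23 for the 29 accessory genes with all 6 libraries, and 0.05 and −0.0044 without WT replicate 1. Over all 36 genes the range without WT replicate 1 was −0.22 to 0.12. Ndufb8, the accessory subunit whose gene had the highest mean level of the complex, stood at 92.2, 83.6 and 102 FPKM in KO libraries and 144, 85.7 and 86.1 FPKM in WT libraries. Ndufa13, which is also called GRIM-19, stood at 84.1, 75.3 and 94.8 FPKM in KO libraries and 138, 88.7 and 86.3 FPKM in WT libraries. In both, the KO and WT ranges overlapped, and WT replicate 1 was the highest library. Ndufa1, a small membrane subunit, stood at 88.4, 85.4 and 96.1 FPKM in KO libraries and 103, 97.8 and 90.8 FPKM in WT libraries, with overlap again.

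Ndufc2 and Ndufa8, both accessory subunits, had the smallest p of the complex, and neither passed the test. Ndufc2 had 42.2, 39.9 and 40.4 CPM in KO libraries and 51.6, 45.9 and 44.0 CPM in WT libraries (log2 fold change −0.21, edgeR adjusted p = 0.476; −0.14 without WT replicate 1). Ndufa8 had 34.0, 35.6 and 39.8 CPM in KO libraries and 52.5, 41.6 and 38.6 CPM in WT libraries, and here the groups overlapped. The row named Ndufs6, an iron-sulfur fraction subunit, held few counts, 0.356 to 0.606 CPM in KO and 0.573 to 0.914 CPM in WT. Another protein-coding row, LOC679739, whose description matches the NDUFS6 protein, stood at 18.1 to 25.0 CPM in KO and 17.9 to 33.5 CPM in WT. Ndufb1 was outside the selection because the table annotates it as a long non-coding RNA, at 6.53 to 7.84 CPM in KO and 7.27 to 12.6 CPM in WT.

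Assembly factors of complex I, which build the enzyme without staying in it, stood far lower than subunits, with a median of 5.73 FPKM over 8 genes against 47.0 FPKM over the 36 subunit genes. Of the 8, 4 had a log2 fold change above 0 and 4 below, in both fits, and none passed the test. Ndufaf4 had 14.3, 15.6 and 14.9 CPM in KO libraries and 3.96, 15.9 and 15.7 CPM in WT libraries. WT replicate 1 alone was low, and the log2 fold change was 0.33 with it and −0.08 without it. Ndufaf6 had 3.79, 2.74 and 2.77 CPM in KO libraries and 5.89, 3.77 and 4.61 CPM in WT libraries, and the 2 groups overlapped in 1 library each (log2 fold change −0.62, SE 0.26, edgeR adjusted p = 0.433). This became −0.43 (SE 0.24) without WT replicate 1. Ndufaf3 and Ndufaf8, the most abundant of the 8 per length, averaged 14.1 ± 1.20 and 17.5 ± 2.01 FPKM in KO and 15.5 ± 2.89 and 21.3 ± 6.08 FPKM in WT (SD, n = 3 each).

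Complex II, succinate dehydrogenase, is encoded by 4 nuclear genes and carries no mitochondrially encoded subunit. The flavoprotein gene Sdha stood at 78.3, 75.6 and 81.9 FPKM in KO libraries and 115, 78.9 and 75.9 FPKM in WT libraries. Sdhb (iron-sulfur subunit) averaged 64.8 ± 5.71 FPKM in KO and 76.8 ± 21.3 FPKM in WT, and the membrane anchors Sdhc and Sdhd averaged 68.4 ± 0.549 and 51.3 ± 2.75 FPKM in KO and 90.4 ± 39.3 and 56.2 ± 11.1 FPKM in WT (SD, n = 3 each). The wide spread of the WT group came from replicate 1, which was the highest library for all 4 genes. Log2 fold changes were −0.39 to −0.12 with all 6 libraries and 0.0086 to 0.04 without WT replicate 1, so the 4 signs turned with that library. None passed the test.

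The promoter of Sdha is printed because, of the members' promoters searched, it holds the most matches to the motif of NRF1, a transcription factor known for its sites in promoters of respiratory chain genes. RefSeq promoters of the GRCr8 build, 250 bases before to 50 after the start, were at hand for 83 of the 98 members. The NRF1 motif was written as GCGC, any base, then TGCGC, and searched on both strands, and capitals mark its matches, which do not overlap. The Sdha promoter lies at chr1:30764303-30764602, plus strand.
Sdha: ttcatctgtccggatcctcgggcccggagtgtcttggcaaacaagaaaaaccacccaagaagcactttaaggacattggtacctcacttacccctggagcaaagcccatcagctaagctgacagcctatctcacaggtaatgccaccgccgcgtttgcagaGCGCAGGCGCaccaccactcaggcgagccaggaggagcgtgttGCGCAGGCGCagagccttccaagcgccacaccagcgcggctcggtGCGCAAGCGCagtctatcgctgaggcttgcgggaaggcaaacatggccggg
The motif stood in 15 of the 83 promoters (18.1%) and in 4.71% of 27457 rat promoters of the same length, and the members' promoters had a median GC content of 56.0% against 52.3% over all. The 15 include those of Atp5mc2, Atp5mc3, Ndufaf4 and Uqcrc1. The motif of GABP, an ETS factor, written as CCGGAAG on both strands, stood in 23 of 83 (27.7%) and in 9.22% of all. A match is a stretch of letters and not a measured site.

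Complex III passes electrons from ubiquinol to cytochrome c. With all 6 libraries, all 9 of its genes had a log2 fold change below 0 (−0.41 to −0.04), against 50.3% of all tested genes. Without WT replicate 1, 6 of 9 lay above 0 (−0.11 to 0.09 over the 9), against 50.7%. Uqcrh, the hinge subunit and the most abundant of the group per length, stood at 121, 114 and 124 FPKM in KO libraries and 144, 116 and 120 FPKM in WT libraries. The core protein gene Uqcrc1 had 97.7, 93.3 and 109 CPM in KO libraries and 188, 110 and 101 CPM in WT libraries (log2 fold change −0.41, edgeR adjusted p = 0.528; −0.07 without WT replicate 1). Cyc1, cytochrome c1, averaged 48.1 ± 1.92 FPKM in KO and 57.8 ± 21.3 FPKM in WT (SD, n = 3 each). For the Rieske protein gene Uqcrfs1, the KO libraries (68.5, 67.6 and 71.8 CPM) lay above WT replicates 2 and 3 (67.2 and 64.5 CPM) and below WT replicate 1 (140 CPM). No gene of complex III passed the test in either fit.

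Complex IV holds the tissue isoforms. None of its 17 tested genes passed the test, and the median log2 fold change was −0.27 with all 6 libraries and −0.07 without WT replicate 1. Cox4i1, a regulatory subunit and the most abundant nuclear gene of the complex, stood at 263, 267 and 272 FPKM in KO libraries and 479, 275 and 271 FPKM in WT libraries. The next most abundant were Cox6a1, at 217, 206 and 210 FPKM in KO libraries and 315, 220 and 216 FPKM in WT libraries, and Cox8a. WT replicates 2 and 3 were close to the KO libraries for Cox4i1 and Cox6a1, and WT replicate 1 was the highest. The lung isoform of Cox4i1, Cox4i2, stood at 29.1, 26.1 and 28.9 FPKM in KO libraries and 39.5, 31.4 and 29.0 FPKM in WT libraries. The ratio of Cox4i2 to Cox4i1 was 11.1%, 9.77% and 10.7% in KO libraries and 8.24%, 11.4% and 10.7% in WT libraries. These ranges overlapped, and the log2 ratio differed by 0.06 between KO and WT (exact permutation test, two-sided, p = 0.9), and by −0.08 without WT replicate 1.

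Ndufa4l2 is, like Cox4i2, known from pericytes and smooth muscle of the lung and from hypoxia, and is related to Ndufa4. The ratio of Ndufa4l2 to Ndufa4, in FPKM, was 29.9%, 28.5% and 29.5% in KO libraries and 31.1%, 31.3% and 29.6% in WT libraries. The groups overlapped in 1 library each (difference of log2 ratios −0.06, exact permutation test, two-sided, p = 0.2). Markers of pericytes and vascular smooth muscle, 12 of 12 tested, summed to 1558 to 1642 CPM in KO and 1454 to 1998 CPM in WT. Of them, Notch3 alone was lower in KO, and only without WT replicate 1 (log2 fold change −0.33, edgeR adjusted p = 0.047; −0.40 and 0.300 with all 6 libraries).

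Within complex IV, the muscle isoforms Cox6a2 and Cox8b departed most from the other libraries in WT replicate 1, and neither passed the test between genotypes. Cox6a2 had 3.85, 6.59 and 17.5 CPM in KO libraries and 58.2, 6.15 and 6.33 CPM in WT libraries. Its log2 fold change was −1.34 (SE 0.97, edgeR adjusted p = 0.594) with all 6 libraries and 0.58 (SE 0.48) without WT replicate 1, so the sign turned with that library. Cox8b had 3.43, 5.58 and 9.98 CPM in KO libraries and 24.3, 6.91 and 7.88 CPM in WT libraries. Its log2 fold change was −1.04 (SE 0.57, edgeR adjusted p = 0.518) and −0.22 (SE 0.34) without WT replicate 1. In both genes WT replicate 1 was the highest library and KO replicate 3 the next, and KO replicate 1 was the lowest.

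The sum of heart muscle markers followed the same order within the KO group. It covered 12 genes, of which 11 were tested. The sum was 210, 424 and 951 CPM in KO libraries and 1185, 229 and 354 CPM in WT libraries. By gene, 2 of 11 had a log2 fold change below 0 with all 6 libraries (median 1.08), against 50.3% of all tested genes. Without WT replicate 1, 0 of 11 lay below 0 (median 0.783), against 49.3%. Myh6, the alpha heavy chain of heart myosin, had 50.9, 106 and 250 CPM in KO libraries and 9.85, 42.1 and 83.1 CPM in WT libraries, so WT replicate 1 was the lowest for it. In that library Actc1 (649 CPM) and Myl3 (470 CPM) made up most of the sum, and the ventricular light chain gene Myl2 was at 0. Among skeletal markers, Acta1 stood at 1.101, 0.694 and 2.39 CPM in KO libraries and 5077, 1.27 and 1.90 CPM in WT libraries, and Myh4 was at 0 in all KO libraries and in WT replicate 2. None of the 11 tested heart or 9 tested skeletal markers passed the test in either fit. The brown adipocyte marker Ucp1 was at 0 or under 0.1 CPM throughout. The part of muscle RNA in the levels of Cox6a2 and Cox8b was not tested.

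**Figure D4:**
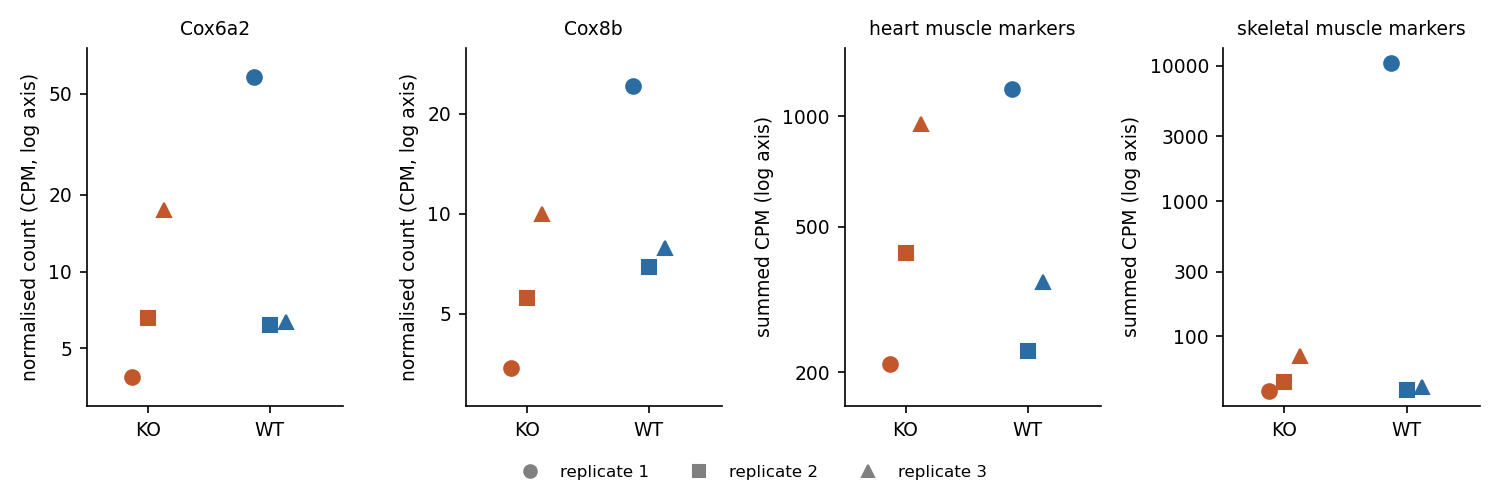
Normalised counts (CPM) of Cox6a2 and Cox8b and the summed CPM of heart and skeletal muscle markers in each library, on log axes. WT replicate 1 is the highest library in each panel, and KO replicate 3 comes next in each.

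Promoters of the muscle forms and of Cox8a are printed because the isoform pair Cox8b and Cox8a differs both in its spread between libraries and in the motifs found. Capitals mark, in Cox6a2, the single match among the members to the motif of MEF2, a factor of muscle genes, in Cox8b a TATAAA, and in Cox8a CTTCCGG, which is CCGGAAG on the other strand. Coordinates are of GRCr8 and all are on the minus strand: chr1:192219667-192219966 for Cox6a2, chr1:205408224-205408523 for Cox8b and chr1:213833574-213833873 for Cox8a.
Cox6a2: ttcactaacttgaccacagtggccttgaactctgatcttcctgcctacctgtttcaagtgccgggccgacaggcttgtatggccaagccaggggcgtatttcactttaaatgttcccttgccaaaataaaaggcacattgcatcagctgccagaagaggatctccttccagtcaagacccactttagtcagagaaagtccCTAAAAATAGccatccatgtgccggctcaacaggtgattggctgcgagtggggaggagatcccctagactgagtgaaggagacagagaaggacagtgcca
Cox8b: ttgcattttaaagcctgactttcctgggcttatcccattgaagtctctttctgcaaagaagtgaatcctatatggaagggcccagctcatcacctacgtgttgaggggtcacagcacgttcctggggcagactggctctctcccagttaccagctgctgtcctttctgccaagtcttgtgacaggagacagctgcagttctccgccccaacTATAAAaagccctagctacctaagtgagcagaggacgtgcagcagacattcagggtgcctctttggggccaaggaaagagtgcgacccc
Cox8a: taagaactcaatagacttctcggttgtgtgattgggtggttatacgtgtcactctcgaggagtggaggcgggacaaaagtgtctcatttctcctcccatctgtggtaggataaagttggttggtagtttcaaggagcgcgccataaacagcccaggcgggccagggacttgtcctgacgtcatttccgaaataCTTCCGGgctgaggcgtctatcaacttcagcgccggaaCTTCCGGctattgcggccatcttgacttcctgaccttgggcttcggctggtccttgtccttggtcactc
The MEF2 motif stood in 1 of 83 members' promoters (1.2%) and in 3.37% of all rat promoters. TATAAA stood in 7 of 83 (8.4%) and in 14.26% of all, also counted on both strands. Over the 6 libraries, Cox8a ranged from 69.5 to 70.7 CPM in KO and 74.7 to 92.4 CPM in WT, with every KO library below every WT library and no call (log2 fold change −0.23, edgeR adjusted p = 0.451; −0.14 and 0.281 without WT replicate 1).

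In relation to their ubiquitous partners, Cox6a2 stood at 3.36%, 6.04% and 15.8% of Cox6a1 in KO libraries and 35.5%, 5.29% and 5.55% in WT libraries, in FPKM. For Cox8b against Cox8a the ratio was 7.67%, 12.3% and 22.2% in KO libraries and 40.8%, 13.4% and 16.4% in WT libraries. The groups overlapped in both pairs, and the log2 ratios differed by −0.57 and −0.70 between KO and WT (exact permutation test, two-sided, p = 0.7 and 0.4). Cox7a1 is not a named row, and LOC687508, whose description matches its protein, had 14.8 to 17.9 CPM in KO and 11.9 to 16.2 CPM in WT. Unlike Cox6a2 and Cox8b, it was lowest in WT replicate 1.

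Cox7a2 and Cox7a2l form a pair in which the groups did not overlap. Cox7a2 is the ubiquitous subunit, and Cox7a2l encodes a related protein that joins complexes III and IV in supercomplexes. The ratio of Cox7a2l to Cox7a2 in FPKM was 134%, 130% and 121% in KO libraries and 93.7%, 121% and 105% in WT libraries, a difference of 0.28 in log2 ratio (exact permutation test, two-sided, p = 0.1, adjusted p = 0.45 over 9 pairs). KO replicate 3 and WT replicate 2 lay within 1 percentage point of each other. Cox7a2 had 31.4, 31.2 and 33.5 CPM in KO libraries and 53.4, 35.9 and 36.8 CPM in WT libraries (log2 fold change −0.39, edgeR adjusted p = 0.44; −0.18 and 0.244 without WT replicate 1). Cox6b2, the testis form of Cox6b1, had 3.53, 2.52 and 3.03 CPM in KO libraries and 3.62, 4.01 and 5.33 CPM in WT libraries. Its log2 fold change of −0.52 was −0.63 without WT replicate 1 (edgeR adjusted p = 0.478 and 0.193), and its ratio to Cox6b1 overlapped between groups. The testis forms Cox7b2 and Cox8c had no count.

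Over the 9 isoform pairs tested, p was 0.1 in 2, Cox7a2l with Cox7a2 and Ndufa10l1 with Ndufa10, and 0.2 to 0.9 in the other 7. No pair passed after adjustment, since 3 against 3 libraries cannot go below 0.1. The largest difference of log2 ratios was that of Ndufa10l1 to Ndufa10, −2.28 with all 6 libraries and −2.20 without WT replicate 1.

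Complex V, the ATP synthase, includes Atp5f1b, the member with the highest mean level per length. This gene of the catalytic beta subunit stood at 309, 317 and 364 FPKM in KO libraries and 642, 346 and 331 FPKM in WT libraries, and Atp5f1a, the alpha subunit, at 166, 168 and 185 FPKM in KO libraries and 319, 178 and 164 FPKM in WT libraries. For both, the KO libraries and WT replicates 2 and 3 overlapped, and WT replicate 1 was the highest. Summed over its 17 genes, the complex stood at 1905, 1858 and 2079 FPKM in KO libraries and 3054, 2042 and 1969 FPKM in WT libraries. By comparison the 36 complex I genes summed to 1695, 1638 and 1816 FPKM in KO libraries and 2617, 1762 and 1683 FPKM in WT libraries. Median log2 fold changes were −0.35 for the 5 genes of the F1 head and −0.26 for the other 12 genes with all 6 libraries, and −0.04 for each without WT replicate 1. No gene of the complex passed the test in either fit.

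The smallest p of complex V belonged to Atp5mg, subunit g of the membrane part. It had 60.3, 57.5 and 62.6 CPM in KO libraries and 82.1, 67.8 and 69.3 CPM in WT libraries, with no overlap (log2 fold change −0.28, SE 0.11, edgeR adjusted p = 0.407). Its log2 fold change without WT replicate 1 was −0.19 (SE 0.07, edgeR adjusted p = 0.168). Atp5f1d, the delta subunit of the head, had 97.2, 92.7 and 101 CPM in KO libraries and 194, 108 and 103 CPM in WT libraries, and it also fell short of the threshold (edgeR adjusted p = 0.489 and 0.396). Atp5if1, the inhibitor that binds the enzyme when the proton gradient is lost, had 44.0, 45.5 and 47.1 CPM in KO libraries and 48.2, 54.1 and 47.9 CPM in WT libraries (log2 fold change −0.14, edgeR adjusted p = 0.582; −0.16 and 0.299 without WT replicate 1). The subunit c genes Atp5mc1, Atp5mc2 and Atp5mc3 encode the same mature protein with different import signals. In FPKM, Atp5mc1 stood at 44.7% to 55.0% of Atp5mc3 in KO libraries and 43.1% to 50.2% in WT libraries, and Atp5mc2 at 116% to 132% in KO and 119% to 125% in WT, with overlap in both pairs.

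Across the complexes, 12 of 93 members had every KO library below every WT library, against 11.4% of all tested genes, and 0 had every KO library above, also against 11.4%. The share below was thus close to that of all genes. WT replicate 1 was the highest of the 6 libraries for 80 of the 93 members. None of those 80 could have every KO library above every WT library. The 12 were Ndufc2, Ndufs7, Ndufv3, Cox6b2, Cox7a2, Cox8a, Atp5f1d, Atp5if1, Atp5mg, Atp5pd, Cox7a2l2 and Ndufa10l1. Against WT replicates 2 and 3 alone, 13 members had every KO library below (17.5% of all tested genes) and 3 above (17.1%), Ndufa3, Ndufa6 and Uqcrfs1. The 13 were the 12 above and Ndufaf4.

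Cox7a2l2 was the other annotated copy with enough counts, at chromosome 14, 51301169 to 51301612, plus strand. It had 1.46, 1.58 and 1.21 CPM in KO libraries and 3.62, 2.14 and 2.33 CPM in WT libraries. All KO libraries lay below all WT libraries, without passing the test (log2 fold change −0.93, SE 0.30, edgeR adjusted p = 0.354; −0.66 and 0.281 without WT replicate 1). The table holds 51 further protein-coding rows under other symbols whose description names a protein that fits the same selection. Of these, 14 were tested and 0 passed. They include LOC687508 for Cox7a1. The match to Ndufb1 among them, LOC120098225, had no count in any library and is not the long non-coding row named Ndufb1. Reads could be split between such rows and similar genes in ways that the sources used here do not state.

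Subunits encoded by mitochondrial DNA, 13 genes, took 2.80%, 2.87% and 3.16% of counts in KO libraries and 2.61%, 2.59% and 2.73% in WT libraries. The groups did not overlap, with means of 2.94% ± 0.191 in KO and 2.64% ± 0.0753 in WT (SD, n = 3 each; exact permutation test, two-sided, p = 0.1). Without WT replicate 1 the exact permutation p was 0.2. These are shares of raw counts. In TMM-scaled CPM the 13 genes summed to 27140, 27580 and 30380 in KO libraries and 29870, 25820 and 27000 in WT libraries. On that scale the groups overlapped. Mitochondrially encoded counts were 5.15, 5.32 and 5.34 times the nuclear-encoded counts in KO libraries and 3.50, 4.61 and 5.05 times in WT libraries. These ratios did not overlap (p = 0.1, the smallest an exact permutation test of 3 against 3 can give). By gene, 0 of 13 passed the test in either fit. The median log2 fold change was 0.03 with all 6 libraries, when 5 of 13 lay below 0 (50.3% of all tested genes). Without WT replicate 1 it was 0.11, and 12 of 13 lay above 0 (50.7% of all tested genes). The 13 genes are not replicates of each other. ND2, which had the smallest p of the 13, had 1604, 1575 and 1779 CPM in KO libraries and 1530, 1426 and 1538 CPM in WT libraries (log2 fold change 0.14, edgeR adjusted p = 0.58; 0.16 and 0.225 without WT replicate 1).

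**Figure D5:**
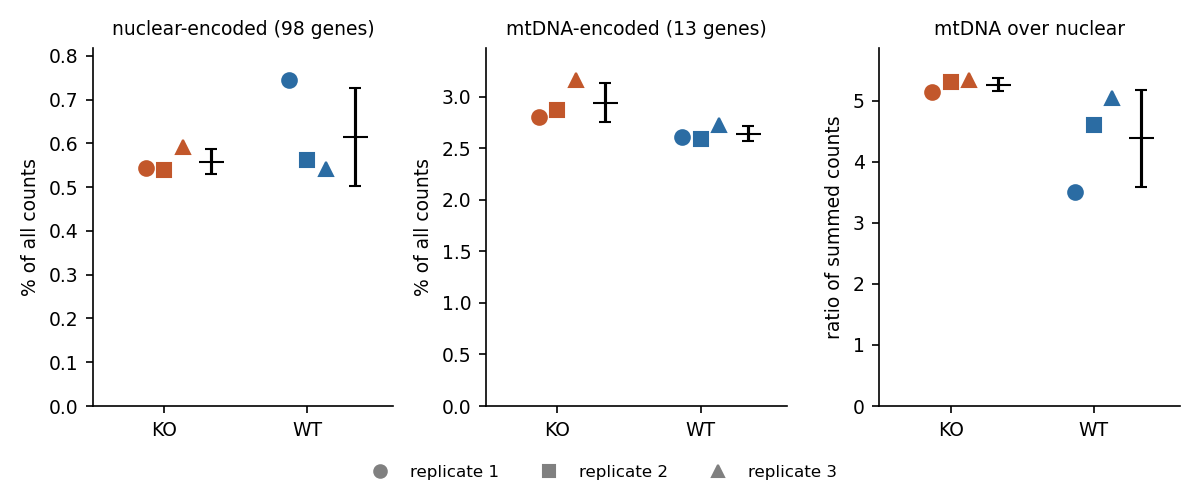
Percent of all counts assigned to the 98 nuclear-encoded genes (left) and to the 13 mitochondrially encoded subunit genes (middle), and the ratio of the second sum to the first (right), per library with the mean and SD of each group in black. The ratio lies at 5.15 to 5.34 in the KO libraries and at 3.50 to 5.05 in the WT libraries, and WT replicate 1 is the highest library on the left and the lowest on the right.

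Other genes of the pathway were counted in the same way. With all 6 libraries, 0 passed among 10 tested further assembly factors of complex I, 4 of complex II, 9 of complex III, 21 of complex IV and 4 of complex V. Among 20 tested electron carrier, ubiquinone synthesis and ATP export genes, 0 passed as well. With all 6 libraries 0.0542% of all tested genes passed, so 0 calls in lists of this size say little. Without WT replicate 1, 0 genes of these lists passed, against 3.99% of all tested genes. Coq8a, a kinase-like protein of ubiquinone synthesis, had 18.8, 20.9 and 26.7 CPM in KO libraries and 275, 25.1 and 22.98 CPM in WT libraries, so that its log2 fold change of −2.28 became −0.12 without WT replicate 1. Pdss1, which makes the ubiquinone side chain, had 6.96, 8.23 and 7.18 CPM in KO libraries and 4.40, 5.34 and 5.28 CPM in WT libraries without passing (log2 fold change 0.57, edgeR adjusted p = 0.337; 0.49 and 0.150 without WT replicate 1).

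Of 17 regulators of mitochondrial biogenesis, 0 passed with all 6 libraries and 1 was lower in KO without WT replicate 1 (2.34% of all tested genes). This was Pprc1, a coactivator of the PGC-1 family, with 38.0, 41.7 and 44.0 CPM in KO libraries and 51.6, 54.0 and 56.1 CPM in WT libraries. All KO libraries lay below all WT libraries (log2 fold change −0.42, edgeR adjusted p = 0.0167 without WT replicate 1; −0.39 and 0.259 with it). Tfam, which packages mitochondrial DNA, had 31.7, 31.3 and 31.8 CPM in KO libraries and 29.9, 26.9 and 25.9 CPM in WT libraries (log2 fold change 0.20, edgeR adjusted p = 0.499; 0.26 and 0.103 without WT replicate 1). Polg2 and Esrra, with smaller p than Tfam with all 6 libraries, went in opposite directions and did not pass. Polg2 had a log2 fold change of 0.49 (edgeR adjusted p = 0.383), and 0.45 (0.201) without WT replicate 1. Esrra had −0.36 (0.415), and −0.22 (0.219) without that library. The 18 tricarboxylic acid cycle genes and the 16 tested genes of the large mitochondrial ribosomal subunit gave 0 calls in either fit. Of all tested genes, 0.0542% passed with all 6 libraries and 3.99% without WT replicate 1. All 18 glycolysis genes had a log2 fold change below 0 with all 6 libraries (median −0.36), against 50.3% of all tested genes. Without WT replicate 1, 8 of 18 lay below 0 (median 0.0062), against 49.3%, and 0 passed in either fit. Their CPM summed to 2085, 2115 and 2176 in KO libraries and 5653, 2304 and 2101 in WT libraries.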

How the data were processed

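The count table gives whole-number read counts per gene, per the file headers, on the build mRatBN7.2 per the submitters' processing notes. A deposited table holds FPKM, a unit scaled by gene length and library depth, per the file headers. The submitters' processing notes name HISAT2 2.2.1 and featureCounts 2.0.6, beside StringTie 2.2.3, DESeq2 1.42.0 and CASAVA, with no roles or settings. The sources used here do not state strand handling or the treatment of reads with several matches.

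Counts of the 6 libraries (29933359 to 36895162 each) were fitted in edgeR 4.0.16 (R 4.3.3) with filterByExpr (minimum count 10, minimum total 15), TMM scaling, the quasi-likelihood test on genotype and Benjamini-Hochberg adjustment over 18464 genes, at 0.05. CPM are TMM-scaled. FPKM served for levels between genes and isoform ratios. Alternatives used limma 3.58.1, DESeq2 1.42.0, other filters and scalings, a replicate block, and each library left out. Nothing says how animals were sampled beyond the word biological replicate, so p-values measure the spread between these samples. Members, lists and tests were chosen with earlier results of these data known. Named members are those in an isoform pair, with an adjusted p under 0.05, among the 3 highest mean FPKM of their complex, or among its 2 smallest p in either fit; of other lists, up to 4 with the smallest p. Members singled out by their level in WT replicate 1, by groups that do not overlap or by an interval beyond ±1, together with the neighbours of Ndufa10l1, the rows under other symbols and markers outside that rule, were chosen after their values were seen. Same-numbered KO and WT libraries did not deviate together.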

Additional observations from a re-analysis of the deposited data

How the results depend on the processing

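The count of all genes passing was 10 with all 6 libraries, 401 with DESeq2, 1676 with limma-voom with sample quality weights, 2 with the replicate block, and 1 to 758 when a library was left out, the 758 without WT replicate 1. Members passing were 0 with limma-voom, with limma on log2(FPKM + 1) and with the replicate block, and 0 to 1 when a library was left out; Ndufa10l1 had log2 fold changes of −2.51, −2.11 and −2.53 (−2.75 to −2.27 when a library was left out). The replicate numbers did not pair the samples (correlations of −0.0808, 0.0275 and −0.0848 for numbers 1 to 3), and the block changed no other member's call.

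With quality weights, the signs of Atp5mc1 (0.03), Cox6a2 (0.18), Cox7b (−0.13), Cyc1 (0.06), Ndufaf3 (0.01), Ndufaf4 (−0.05), Ndufaf8 (0.03), Ndufb8 (0.08) and Uqcrh (0.03) turned. Without WT replicate 1, 16 named members turned sign, and their fold changes over all left-out libraries ran from −0.51 to 0.02 for Atp5f1a, −0.42 to 0.07 for Atp5mc1, −0.40 to 0.01 for Atp5mc2, −2.17 to 0.58 for Cox6a2, −0.19 to 0.01 for Cox7a2l, −0.08 to 0.21 for Cox7b, −0.40 to 0.08 for Cyc1, −0.22 to 0.03 for Ndufaf3, −0.08 to 0.60 for Ndufaf4, −0.30 to 0.11 for Ndufb8, −0.29 to 0.03 for Sdha, −0.36 to 0.01 for Sdhb, −0.60 to 0.01 for Sdhc, −0.24 to 0.04 for Sdhd, −0.41 to 0.01 for Uqcr11 and −0.13 to 0.03 for Uqcrh. The pair ratios that turned ran from −0.08 to 0.16 (Cox4i2 to Cox4i1), −1.17 to 0.34 (Cox6a2 to Cox6a1), −0.04 to 0.11 (Atp5mc1 to Atp5mc3) and −0.56 to 0.10 (Cox6b2 to Cox6b1). The members' median ran from −0.36 to −0.03. Beyond the left-out library itself, the cause was not tested. With 3 libraries a group and WT replicate 1 kept, most members' intervals reached beyond ±0.5 on the log2 scale.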
